A study of Mus musculus with 3 samples.

Results

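Chemokine-rich microglia were the cells with at least 5 UMIs of Ccl3 and Ccl4 together and at least 10 such UMIs per 10000 UMIs of the cell. Of 18340 barcodes in 3 single-cell libraries, 17407 passed the filters on gene number, mitochondrial share and markers of border macrophages and monocytes, and 168 of these were chemokine-rich. The libraries came from hCD33m mice, hCD33M mice and Control mice at 8 weeks of age. hCD33m is the short isoform of human CD33, a sialic acid-binding receptor of myeloid cells, and it lacks the domain that binds sialic acid, whereas hCD33M is the long isoform. The methods of the study describe each isoform as a transgene placed in Rosa26 behind a floxed stop, read from the CAG promoter and switched on by Cx3cr1-driven Cre, with the hCD33m line raised from a single embryonic stem cell clone on the C57BL/6 background. Control mice were wild type by label, and whether they carried Cre was not given for these libraries. Brains of 2 mice went into each library, were handled cold with actinomycin D, triptolide and anisomycin, which block transcription or translation, and were sorted for CD11b+CD45lowCx3cr1+ cells. A genotype was therefore 1 sample, and no value here has a check across animals.

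CCL3 and CCL4, also called macrophage inflammatory proteins, are small secreted chemokines that draw monocytes and lymphocytes. Their genes lie close together on mouse chromosome 11 and are switched on within minutes to hours when microglia meet microbial products, cell damage or tissue handling, largely through NF-kB and stress kinases. In brain they are known from ageing, demyelination and amyloid pathology, and as transcripts that dissociation of the tissue can induce. On mm10 with GENCODE M21, Ccl3 is at chr11:83647844-83649355 on the minus strand and Ccl4 at chr11:83662584-83664683 on the plus strand.

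The hCD33m library was labelled female and the others male, but Ddx3y, a Y-linked helicase, had 3854 UMIs in hCD33m, 3831 in hCD33M and 3074 in Control, and Xist, the RNA of the inactive X, had 0, 0 and 3 UMIs. The data of the hCD33m library thus went against its label. Only 25 barcodes occurred in more than 1 library, and 1 chemokine-rich cell had such a barcode. No doublet caller was run, and 22, 36 and 8 barcodes fell to the limit of 8000 genes. The libraries held 40629705 UMIs in hCD33m, 36413491 in hCD33M and 32272657 in Control, and the passing cells had a median of 4852, 4183 and 4271 UMIs.

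The share of chemokine-rich microglia was 2.07% in hCD33m (123 of 5942 cells, exact Clopper-Pearson 95% interval 1.72% to 2.46%), 0.283% in hCD33M (16 of 5647, 0.162% to 0.460%) and 0.498% in Control (29 of 5818, 0.334% to 0.715%). The hCD33m share was 4.15 times that of Control and 7.31 times that of hCD33M, and the hCD33M share was 0.568 times that of Control. The intervals of hCD33m did not overlap those of the other libraries, while hCD33M and Control overlapped, and the intervals cover counting error only. Cells without any Ccl3 or Ccl4 UMI made up 74.7% of passing cells in hCD33m, 90.03% in hCD33M and 86.6% in Control. The order was the same at equal depth. With every cell thinned to 2000 UMIs the shares were 1.03% (50 of 4835 cells), 0.104% (4 of 3860) and 0.322% (13 of 4043). The thinning left out 1107, 1787 and 1775 shallower cells. Thinned to 4000 UMIs they were 2.23%, 0.371% and 0.643%. Isolation, sequencing run and the pair of pooled mice cannot be told apart from genotype here, since each genotype was 1 library.

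**Figure D1:**
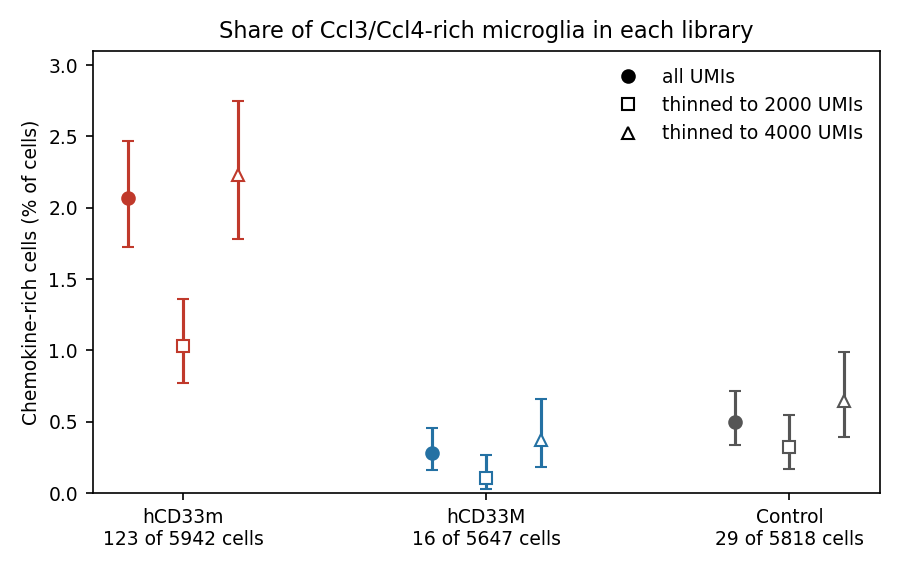
Share of chemokine-rich cells (y axis, % of cells) in the hCD33m, hCD33M and Control libraries, with filled circles for all UMIs, squares for cells thinned to 2000 UMIs and triangles for 4000 UMIs; bars are exact 95% binomial intervals. The hCD33m values of 2.07%, 1.03% and 2.23% lie above those of both other libraries under each of the 3 depths.

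Chemokine-rich cells ranged from the minimum to far above it. Of the 168 cells, 92 held 10 to 20 Ccl3 and Ccl4 UMIs per 10000, 43 held 20 to 50, 9 held 50 to 100 and 24 held at least 100. The lowest, median and highest values were 10.0, 16.6 and 963 per 10000 in hCD33m, 11.4, 16.2 and 231 in hCD33M, and 11.3, 24.5 and 837 in Control. The median was higher in Control than in hCD33m and hCD33M, and the highest cell of hCD33M was well below those of hCD33m and Control. Cells at 100 or more numbered 16 in hCD33m, 2 in hCD33M and 6 in Control. The 3 strongest cells held 20.8% of the chemokine UMIs of these cells in hCD33m, 76.7% in hCD33M and 63.4% in Control. The 168 cells held 54.5% of all Ccl3 and Ccl4 UMIs of the passing cells in hCD33m, 43.1% in hCD33M and 55.0% in Control.

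Ccl3 and Ccl4 were mostly found in the same cells. Both genes had UMIs in 135 of the 168 cells, with Ccl3 alone in 20 and Ccl4 alone in 13. Ccl3 made up 33.3% of the summed Ccl3 and Ccl4 UMIs in hCD33m, 33.6% in hCD33M and 34.1% in Control, so the summed balance was nearly equal across libraries. These sums lean on few cells, as 1 hCD33M cell held 129 of 242 Ccl3 and 299 of 479 Ccl4 UMIs. In passing cells at 20 to 50 per 10000 the share of Ccl3 was 40.7%, 25.8% and 55.9%. In hCD33m the balance moved step by step with strength over all passing cells that held either gene. Ccl3 was 65.4% of the pair in hCD33m cells under 5 per 10000, 61.4% at 5 to 10, 48.9% at 10 to 20, 40.7% at 20 to 50, 34.0% at 50 to 100 and 27.0% at 100 or more (Clopper-Pearson 25.2% to 28.9%). The weakest hCD33m cells were thus richer in Ccl3 and the strongest richer in Ccl4. The ends were alike in the other libraries, with 62.8% in hCD33M and 64.1% in Control under 5 per 10000 and 29.2% and 32.5% at 100 or more, but the steps between, of 2 to 52 cells in hCD33M and 2 to 88 in Control, followed no order. Since a cell entered through the sum of both genes, these shares are descriptions.

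**Figure D2:**
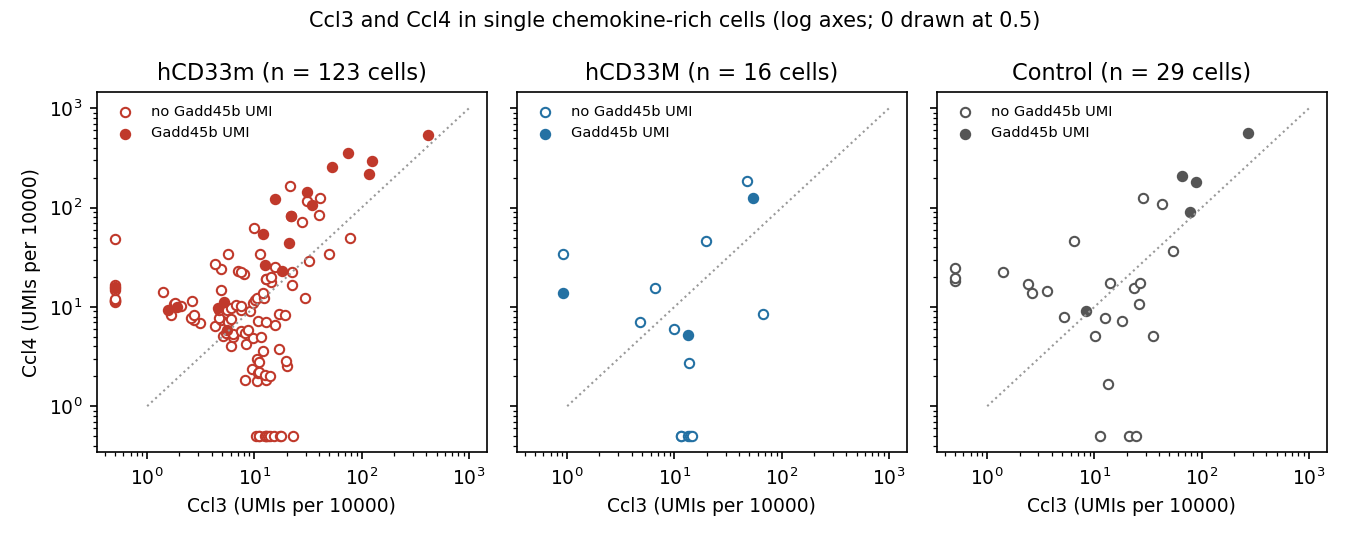
Ccl3 (x axis) against Ccl4 (y axis) in UMIs per 10000 of the cell on log axes, one point per chemokine-rich cell, for hCD33m, hCD33M and Control, with 0 drawn at 0.5; filled points hold a Gadd45b UMI and the dotted line marks equal levels. Cells at 100 or more per 10000, which number 16, 2 and 6, lie mostly above the line, on the Ccl4 side.

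The label of microglia held. Summed over 8 microglial markers, among them P2ry12, Tmem119 and Sall1, chemokine-rich cells had 21634 CPM (UMIs per 1000000) in hCD33m, 23032 in hCD33M and 21012 in Control, against 24623, 25730 and 26092 CPM in the other passing cells with at least 2000 UMIs of the same libraries, and 167 of 168 cells held at least 3 UMIs of these markers. Border macrophage markers summed to 5.6, 6.6 and 30.8 CPM, against 9.5, 13.1 and 10.8 CPM in other cells. The Control value came from 5 UMIs, and Cd163, Lyve1 and Pf4 were at 0 in all 3 libraries. Monocyte markers summed to 10.0, 19.7 and 6.2 CPM, against 20.1, 11.7 and 14.4 CPM, with Ly6c2, Chil3 and Fn1 at 0. Some of these markers had served to remove cells, and 7 cells that met the chemokine rule were among the cells removed. T and NK cell, mural and red cell markers had no UMI, and neutrophil markers had 1. Astrocyte markers summed to 186, 210.2 and 319.9 CPM, against 195, 234 and 229.9 CPM in other cells, with Aqp4, Gja1 and Gfap at 0 and 33 of 168 cells at 3 UMIs or more. Oligodendrocyte markers summed to 77.0, 65.7 and 55.4 CPM, against 66.1, 63.1 and 63.6 CPM. Their part in the results was not tested. Chemokine-rich cells had a median of 5497 UMIs in hCD33m, 4660.5 in hCD33M and 4732 in Control, close to the 5391, 5282 and 5391.5 of the other cells, and median mitochondrial shares of 1.46%, 1.35% and 1.90%, against 1.28%, 1.25% and 1.496%. A single hCD33M cell held 36.0% of the UMIs of its chemokine-rich group.

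Gadd45b, Egr3 and Csf1, the other genes of the label, were higher in chemokine-rich cells than in other cells of each library. Because the cells were picked by Ccl3 and Ccl4 in these same libraries, this and each later comparison with other cells is a description, with no test. Gadd45b, a stress sensor of the growth arrest and DNA damage family and an NF-kB target, had 102 CPM in chemokine-rich cells of hCD33m, 191 in hCD33M and 159.9 in Control, against 1.84, 1.28 and 0.776 CPM in other cells. Its log2 ratios were 5.79, 7.22 and 7.69. Egr3, an early growth response transcription factor, had 125, 32.8 and 117 CPM, against 17.9, 2.32 and 0.564 CPM. Csf1, which encodes the cytokine that sustains microglia, had 114, 158 and 529 CPM, against 12.9, 14.4 and 18.1 CPM. A Gadd45b UMI was seen in 19 of 123 cells in hCD33m, 3 of 16 in hCD33M and 5 of 29 in Control, and a cell with 0 UMIs at this depth may still express the gene. In Control a single cell held 18 of the 19 Egr3 UMIs, and 2 cells of hCD33M held all 5.

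Across the table, 6605 genes other than Ccl3 and Ccl4 had a mean of at least 20 CPM, and 137 of them (2.07%) were at least 1.5-fold higher in chemokine-rich cells in each of the 3 libraries, while 22 (0.333%) were at least 1.5-fold lower in each. Within single libraries 3.97%, 12.9% and 13.5% of genes passed 1.5-fold upward in hCD33m, hCD33M and Control, and 4.13%, 17.4% and 23.2% downward, with more in the 2 libraries that had fewer chemokine-rich cells. The counts of list members called higher that follow stand beside this 2.07% of all genes. Some of these lists hold Gadd45b, Egr3 or Csf1, which the label had already named, and some genes sit in more than 1 list. Such counts are thus descriptions and no separate support. Ratios are summarised below by the middle of the 3 log2 ratios, whose median over all 6605 genes was -0.06. Removing the strongest cell of each gene and library from the chemokine-rich sums left 56 genes higher, of which 52 were among the 137, and 109 lower. The sums of other cells were left whole, so this step by itself tends to lower the ratios. The middle log2 ratio was then 6.07 for Gadd45b, 5.62 for Gdf15, 3.82 for Lgals3, 2.77 for Lpl and 2.15 for Ccl2, each over 1.5 times lower in fold than with that cell.

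Some other chemokines and cytokines were higher in the same cells. Of 7 other chemokines measured, Ccl2, Ccl5, Ccl12, Cxcl10 and Cxcl16 were called higher and none lower (5 of 7, median log2 ratio 1.497), and without 9 interferon-high cells described below 2 of 5 were. Ccl2, which draws monocytes through CCR2, had 164, 145 and 98.4 CPM in chemokine-rich cells of hCD33m, hCD33M and Control, against 31.2, 13.8 and 7.55 CPM. Ccl12, a mouse chemokine that shares that receptor, had 351, 250 and 1033 CPM, against 124, 122 and 166 CPM, but without the interferon-high cells its middle log2 ratio was -0.050. Of 9 cytokines and growth factors measured, 4 were higher (median 0.88), namely Csf1, Tnf, Il1b and Osm. Tnf, the founding tumour necrosis factor, had 115, 85.4 and 73.8 CPM, against 12.2, 6.76 and 9.56 CPM, and was carried by 31, 3 and 7 cells. Il1b, the gene of interleukin 1 beta, had 40.2, 6.57 and 148 CPM, against 3.70, 4.27 and 2.40 CPM, where the hCD33M value was 1 UMI and 1 Control cell held 23 of 24 UMIs.

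Genes that NF-kB and early growth response factors are known to induce followed in part. Of 18 NF-kB feedback genes and targets, Cd83, Nfkbia, Nfkbiz and Gadd45b were higher (4 of 18, median 0.50). Cd83, a surface protein of activated myeloid cells, had 356, 368 and 418 CPM in chemokine-rich cells, against 73.5, 68.4 and 76.3 CPM, with log2 ratios of 2.28, 2.43 and 2.45 that were nearly equal across libraries. Nfkbia, the inhibitor that NF-kB induces to close its own loop, had 317, 440.1 and 289 CPM, against 146, 180.4 and 169 CPM. Of 9 genes in the EGR and NFAT list, Egr2, Egr3, Nab2 and Rcan1 were higher (4 of 9, median 0.83), with Nab2, a corepressor of EGR factors, at 74.8, 92.0 and 80.0 CPM, against 23.2, 22.6 and 21.7 CPM. Of 24 immediate early genes, Atf3, Egr2, Egr3 and Ier3 were higher (4 of 24, median 0.13), beside 2.07% of all genes. Atf3, a stress-induced repressor, had 233, 184 and 689 CPM, against 19.8, 21.1 and 25.3 CPM. Fos, the best known of the immediate early genes, had 563, 217 and 36.9 CPM in chemokine-rich cells, against 519, 248 and 56.3 CPM, and each ratio had a counting interval that spanned equality.

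Markers that are known from disease-associated microglia were the next group. Of 12 measured, Apoe, Axl, Cd63, Cst7, Lgals3 and Lpl were higher and none lower (6 of 12, median 0.87), beside 2.07% of all genes. Without the interferon-high cells described below, 4 of 11 were higher (median 0.69). Apoe, the lipid carrier apolipoprotein E, had 1179, 1012 and 1144 CPM in chemokine-rich cells, against 536, 453 and 657 CPM in other cells. Lpl, lipoprotein lipase, had 167, 210.2 and 399.8 CPM in chemokine-rich cells, against 17.9, 15.005 and 24.5 CPM. Cst7, the protease inhibitor cystatin F, had 59.2, 52.6 and 117 CPM, against 29.0, 18.1 and 19.999 CPM. Axl, a receptor for dying cells, had log2 ratios of 1.27, 3.49 and 2.26, with 9 of 11 UMIs in hCD33M from 1 cell, which was interferon-high. Lgals3, which encodes the sugar-binding galectin-3, had 77.0, 184 and 332 CPM, against 6.46, 2.73 and 3.21 CPM, and a single Control cell held 47 of 54 UMIs. Outside this list, Gdf15, a stress-induced hormone, had the highest middle log2 ratio of all called genes, 8.83, from 23, 14 and 70 UMIs, of which 1 cell held all 14 in hCD33M and 1 held 52 in Control. In other cells Gdf15 had 1 UMI in Control, where the log2 ratio of 13.58 had an interval of 11.05 to 18.90. Cdkn1a, the cell-cycle inhibitor p21, was also higher, with log2 ratios of 0.98, 1.87 and 2.55. Nes, an intermediate filament gene, Lilr4b, a receptor of the leukocyte immunoglobulin-like family, and Gas2l3, a cytoskeletal linker, were also among the 16 highest, with middle log2 ratios of 4.31, 4.32 and 3.96. Nes had 1 UMI in hCD33M, with an interval of -3.39 to 4.48, and Lilr4b came from 1 cell in hCD33m, 1 in hCD33M and 2 in Control.

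Homeostatic genes had ratios a little below equality. Of 20 measured, none passed 1.5-fold in all 3 libraries in either direction (median -0.21). P2ry12, the purine receptor that guides microglial processes, had 2599, 2877 and 1919 CPM in chemokine-rich cells of hCD33m, hCD33M and Control, against 3419.7, 3557 and 3465 CPM, log2 ratios of -0.40, -0.31 and -0.85. Tmem119 had log2 ratios of -0.50, -0.27 and -1.09, Selplg, the P-selectin ligand, -0.44, -0.31 and -0.61, and Siglech, a microglial sialic acid-binding lectin, -0.22, -0.53 and -0.43. The counting intervals of these 4 genes excluded equality in each library. The 22 genes called lower averaged 20.9 to 111.5 CPM, and of the 10 with the lowest ratios, Naa60, Gab1, Ctdsp1, Ryk, Dennd1a, Pinx1, Gpr137, Zfp637, Arl5a and Ptp4a3, the phosphatase gene Ptp4a3 alone had intervals clear of equality in all 3 libraries, at -0.70, -1.25 and -0.92. At 2-fold no gene was lower in all 3 libraries.

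**Figure D3:**
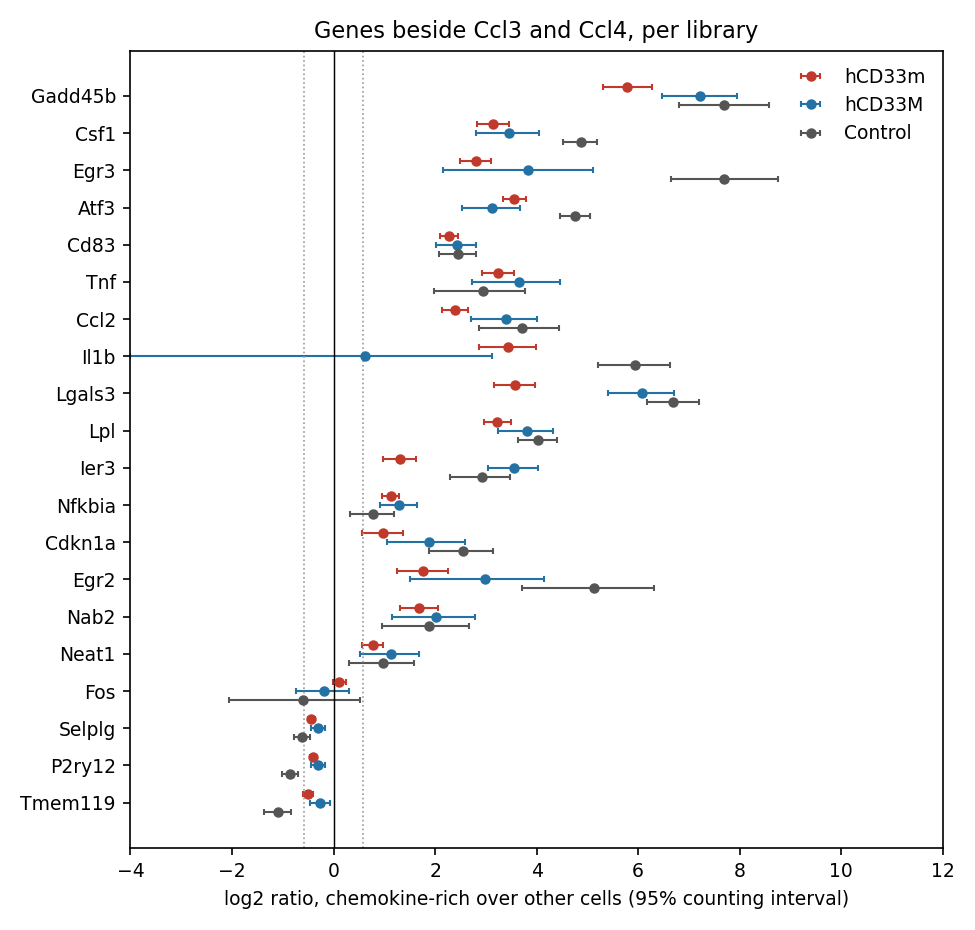
log2 ratio of chemokine-rich over other cells (x axis) for genes named in the text, in hCD33m, hCD33M and Control from top to bottom of each row, with exact 95% counting intervals; dotted lines mark 1.5-fold. Gadd45b sits at 5.79, 7.22 and 7.69, Cd83 at 2.28, 2.43 and 2.45, and P2ry12 at -0.40, -0.31 and -0.85. The Il1b interval in hCD33M runs past the left edge.

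The genes whose level in single chemokine-rich cells was most like that of the chemokines were Csf1, Atf3, Cd83, Gadd45b and Kdm6b, a histone demethylase gene. The middle of their 3 within-library Pearson correlations with Ccl3 and Ccl4, on log values of 123, 16 and 29 cells, was 0.64, 0.64, 0.61, 0.58 and 0.54. In the 16 hCD33M cells the values of Atf3, Cd83, Gadd45b and Kdm6b were lower, at 0.11, 0.29, 0.33 and 0.30. These cells share a library and a depth range, and many hold no UMI of a gene, so the values only rank genes. The starts of Ccl3 and of 3 genes that were higher with it are shown, since they were high in the same cells and could be set beside motifs that such genes are known for. Each line gives the 250 bases before the RefSeq start of transcription on GRCm38.p6, from 5′ to 3′, with matches in capitals.
Ccl3, chr11:83649379-83649628, minus strand: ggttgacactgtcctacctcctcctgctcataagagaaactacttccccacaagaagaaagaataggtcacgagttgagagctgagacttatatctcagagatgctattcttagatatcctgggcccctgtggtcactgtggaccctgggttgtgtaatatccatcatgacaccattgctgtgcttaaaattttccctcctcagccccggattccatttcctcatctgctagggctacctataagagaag
Gadd45b, chr10:80929841-80930090, plus strand: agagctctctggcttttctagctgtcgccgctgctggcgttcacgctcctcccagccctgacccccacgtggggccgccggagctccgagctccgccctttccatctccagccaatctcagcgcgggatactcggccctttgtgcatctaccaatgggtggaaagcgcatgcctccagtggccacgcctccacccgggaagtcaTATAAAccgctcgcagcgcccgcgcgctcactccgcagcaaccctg
Csf1, chr3:107760470-107760719, minus strand: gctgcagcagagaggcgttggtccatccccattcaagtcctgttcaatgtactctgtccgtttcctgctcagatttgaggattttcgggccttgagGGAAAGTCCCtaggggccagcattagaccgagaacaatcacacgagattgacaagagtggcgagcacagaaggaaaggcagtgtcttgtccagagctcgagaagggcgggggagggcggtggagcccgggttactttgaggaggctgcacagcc
Nfkbia, chr12:55492648-55492897, minus strand: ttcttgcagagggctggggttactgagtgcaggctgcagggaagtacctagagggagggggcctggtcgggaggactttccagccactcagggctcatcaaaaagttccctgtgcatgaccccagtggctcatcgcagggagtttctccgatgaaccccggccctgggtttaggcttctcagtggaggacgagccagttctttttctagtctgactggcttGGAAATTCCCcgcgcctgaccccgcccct
The search used the NF-kB consensus of 10 bases, the AP-1 site TGANTCA, the cyclic AMP response element TGACGTCA and the EGR site GCGGGGGCG on both strands, and TATAAA in the direction of transcription. Of 32851 such windows, 3.90% held the NF-kB consensus, 6.75% the AP-1 site, 1.55% the cyclic AMP element, 2.57% the EGR site and 7.59% TATAAA. Csf1 and Nfkbia each held 1 NF-kB match on the opposite strand, beginning 154 and 29 bases before the start, Gadd45b held 1 TATAAA, and the Ccl3 window held none of the 5. Of 19 genes looked up, 12 had a window, and Tnf among them held TATAAA and Ier3 the NF-kB consensus. Atf3, Egr2, Nab2, Gdf15, Lgals3 and P2ry12 held none of the 5 motifs. Each of the 3 genes shown beside Ccl3 held a match, so they do not stand for the 12. A match is a run of letters and not a site.

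Accompanying genes were more frequent in the strongest cells. The cells were split at 50 Ccl3 and Ccl4 UMIs per 10000 after the values had been seen, which gave 33 strong and 135 weaker cells. Of the strong cells, 26 (78.8%) held at least 3 UMIs of Cd83, 19 (57.6%) of Atf3, 13 (39.4%) of Csf1, 12 (36.4%) of Gadd45b and 8 (24.2%) each of Tnf and Ccl2. Of the weaker cells, 27 did so for Cd83, 17 (12.6%) for Atf3, 10 (7.41%) for Csf1, 4 (2.96%) for Gadd45b, 6 (4.44%) for Tnf and 7 (5.19%) for Ccl2. Among 12581 other cells the shares were 4.62%, 0.596%, 0.445%, 0.0159%, 0.207% and 1.33%. The median depth was 5664 UMIs in strong, 5363 in weaker and 5353 in other cells, where only the other cells had a minimum of 2000 UMIs. Of 8 genes, the 6 above with Egr3 and Gdf15, at least 2 reached 3 UMIs in 22 of 33 strong cells, 21 of 135 weaker cells and 96 of 12581 other cells. By library, these were 14 of 21, 2 of 4 and 6 of 8 strong cells in hCD33m, hCD33M and Control. These 8 genes were picked with their values in view. Across the table, strong cells were at least 2-fold higher than other cells, with an interval clear of equality, for 339 of 6605 genes in hCD33m (5.13%), 242 in hCD33M (3.66%) and 369 in Control (5.59%), and lower for 418 (6.33%), 51 (0.772%) and 212 (3.21%). Weaker cells were higher for 59 genes (0.893%), 196 (2.97%) and 219 (3.32%), and lower for 30 (0.454%), 114 (1.73%) and 141 (2.13%). The groups differ in cell number, which these counts follow too.

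In hCD33m, the library with enough cells for steps of chemokine level, the genes moved at different levels. Csf1 climbed at every step, with 10.99, 15.3, 21.1, 46.3, 103 and 419 CPM in cells with 0, up to 5, 5 to 10, 10 to 20, 20 to 50 and over 50 Ccl3 and Ccl4 UMIs per 10000. Gadd45b stayed at 1.71, 2.05 and 2.11 CPM in the first 3 steps, was 26.5 and 10.3 CPM in the next pair, and reached 537 CPM in the last. Tnf had 10.5 CPM in cells without chemokine UMIs and 485 CPM in the last step, and Nfkbia 139 and 566 CPM. P2ry12 ran the other way, at 3495, 3325, 3055, 2898, 2426 and 1713 CPM, and Tmem119 had 1538 CPM in the first step and 617 CPM in the last. Fos showed no such trend, at 514, 512, 648, 655, 441 and 397 CPM. The steps held 3461, 1037, 202, 89, 25 and 21 cells. The last Control step, of only 7 cells, had 485 CPM of Gadd45b, 1625 of Csf1, 1203 of P2ry12 and 422 of Tmem119, against 0.662, 16.8, 3512 and 1596 CPM in Control cells without chemokine UMIs. The edge of the rule was looked at over the 3 libraries together. The 24 chemokine-rich cells with exactly 5 chemokine UMIs had no Gadd45b, 25.6 CPM of Csf1 and 2369 CPM of P2ry12. Just outside, the 17 cells with 4 UMIs and at least 10 per 10000 had no Gadd45b, 50.03 CPM of Csf1 and 2902 CPM of P2ry12. The 28 cells with at least 5 UMIs and 10 to 12 per 10000 had 17.5 CPM of Gadd45b and 48.01 of Csf1. The 21 cells with at least 5 UMIs and 8 to 10 per 10000, just outside, had 0 and 68.8 CPM.

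**Figure D4:**
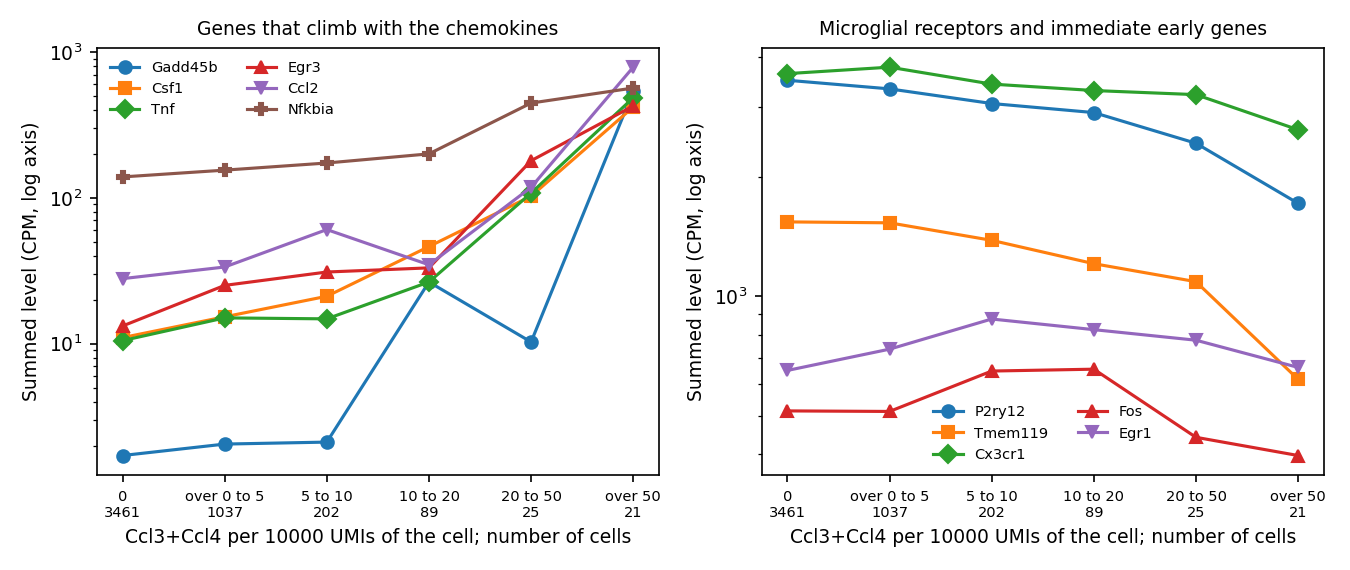
Summed levels (y axis, CPM on a log axis) in hCD33m cells with at least 2000 UMIs, by Ccl3 and Ccl4 UMIs per 10000 of the cell (x axis, with the number of cells per step). Gadd45b reaches 537 CPM and Csf1 419 CPM in the 21 strongest cells, where P2ry12 is at 1713 CPM and Fos at 397 CPM.

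Interferon-stimulated genes formed the list with the highest median, and most of their UMIs came from a few cells. Of 15 measured, 11 were higher (median 3.62), among them the antiviral genes Rsad2, Ifit1, Ifit2, Ifit3b and Mx1 and the interferon regulatory factor Irf7. Cmpk2 and Ifi211, also inducible by interferon, were among the 16 highest genes, as were the chemokine genes Cxcl10 and Ccl5. Rsad2 had 27.9, 1136 and 154 CPM in chemokine-rich cells of hCD33m, hCD33M and Control, against 2.32, 2.83 and 2.86 CPM in other cells, and Cxcl10 33.5, 821 and 319.9 CPM, against 7.43, 3.13 and 4.87 CPM. In hCD33M a single cell of 13357 UMIs held all 173 Rsad2 UMIs, all 240 Ccl5 UMIs and 124 of 125 Cxcl10 UMIs. A limit of 30 UMIs of this list per 10000, set after the values had been seen, marked 9 of the 168 cells as interferon-high, 4 of 123 in hCD33m, 1 of 16 in hCD33M and 4 of 29 in Control (5.36% in all, Clopper-Pearson 2.48% to 9.93%), against 117 of 12581 other cells (0.930%, 0.770% to 1.11%). They held 50.9%, 85.9% and 88.1% of the interferon-list UMIs of the chemokine-rich cells. Of the 9, 1 was above 50 Ccl3 and Ccl4 UMIs per 10000, and their median was 24.8. In the comparisons with other cells, the 9 cells were left out of the chemokine-rich sums only, while the 117 stayed in the other sums. Such a step by itself lowers the ratios of interferon genes, so their fall is a description. Of the 15 genes 4 were then measured and none was higher (median 0.07), while 106 genes in all were higher, 89 of them among the 137. Without the 9 cells the middle log2 ratios of Gadd45b, Csf1, Atf3 and Cd83 were 7.08, 3.33, 3.58 and 2.51, close to those with them.

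Clustering all passing cells on variable genes without Ccl3 and Ccl4 placed the chemokine-rich cells unevenly. Among 10 Leiden clusters, a cluster of 853 cells led by Mmp12, Cxcl10, Rsad2 and Ifit1 held 64 of 168 chemokine-rich cells (38.1%), against 4.58% of the rest, and it held 42 of 123 in hCD33m, 7 of 16 in hCD33M and 15 of 29 in Control. It held 22 of the 24 cells at 100 or more per 10000 but 20 of the 92 cells under 20. With 30 principal components, 40 chemokine-rich cells made up 42.1% of a cluster of 95 cells, with 21 of the 24 strongest. At resolution 0.4, and with immediate early genes left out, the cluster richest in chemokine-rich cells held 1 of these 24. In the clustering first named, the next cluster, of 2703 cells led by Klf4, Fosb and Fos, held 37 chemokine-rich cells, and the largest share of chemokine-rich cells in 1 cluster ran between 24.4%, against 17.4% of the rest, and 49.4%, against 28.5%, over the clusterings tried. No name was given to these clusters.

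Between libraries, chemokine-rich cells of hCD33m were compared with those of Control for the question whether the short isoform changes what such cells express beyond their number. Of 4057 genes that reached 50 CPM in either library, 213 (5.25%) were at least 1.5-fold higher and 292 (7.2%) at least 1.5-fold lower in hCD33m, with a counting interval clear of equality. In other cells of the same libraries 33 (0.879%) and 8 (0.213%) were called, and 23 of the 213 were called there too. The chemokines themselves, which chose the cells, are given as a description, with 1441.5 CPM of Ccl3 in hCD33m and 3094 CPM in Control, and 2884 and 5985 CPM of Ccl4, while in other cells Ccl3 had 56.3 CPM in hCD33m and 25.6 CPM in Control, and Ccl4 31.3 and 14.1 CPM. The 3 cells with most Ccl3 held 23.2% of the Ccl3 UMIs of chemokine-rich cells in hCD33m and 63.4% in Control. Csf1 was lower, with 114 CPM in hCD33m chemokine-rich cells and 529 CPM in those of Control, as was Atf3, with 233 and 689 CPM. The Control sums rest on 29 cells, against 4018 other cells, so the shares of genes called in chemokine-rich and other cells are not on an equal footing. Without the strongest cell of each gene, a step that takes more from the group with fewer cells, 347 genes were higher and 99 lower.

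Immediate early genes were the list with the most members called higher in hCD33m over Control, and also the longest list. It holds Fos, Fosb, Jun, Egr1, Klf2 and Rhob, which the paper reports as raised in hCD33m from these same libraries. The count of this list is thus a description and no separate support for that result. Beyond these libraries, the paper reports such genes as increased in a second single-cell experiment. It also reports a higher density of Fos-positive microglia, and a trend for Klf2, by in situ hybridization in hCD33m brains. Neither was used here. Of 22 measured in chemokine-rich cells, 15 were called higher in the hCD33m library and 1 lower, beside 5.25% and 7.2% of all genes. Their median log2 ratio was 1.07, against 0.02 over all genes, and in other cells the same 22 genes had a median of 1.205, against 0.01. Fos had 563 CPM in chemokine-rich cells of hCD33m and 36.9 CPM in those of Control, and 519 and 56.3 CPM in other cells. Klf2, a zinc-finger factor of quiescence, had 149 and 6.15 CPM (1 UMI), and 182 and 21.1 CPM in other cells. Egr1 had 775 and 246 CPM, and 689 and 131 CPM in other cells. The higher level of these genes was thus seen in chemokine-rich and other cells alike, and whether the 2 ratios differ was not tested. Egr3 departed from this, with 125 CPM in hCD33m and 117 CPM in Control chemokine-rich cells but 17.9 and 0.564 CPM in other cells, where 1 Control cell supplied 18 of the 19 Control UMIs in the first pair. Atf3 was the 1 gene lower. The inhibitors used at dissociation were the same by the methods, and a part of handling in these values was not tested.

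The most extreme other ratios between hCD33m and Control rested on few UMIs or few cells. Some differences had more UMIs but still leaned on single Control cells. Lpl had 167 CPM from 150 UMIs in hCD33m and 399.8 CPM from 65 UMIs in Control, of which 1 cell held 36. Ccl12 had 351 CPM from 314 UMIs and 1033 CPM from 168 UMIs, of which 1 interferon-high Control cell held 89. By list, 4 of 7 chemokines were lower in hCD33m and 1 higher, and 4 of 7 cytokines and growth factors were lower and 0 higher. Over all genes 7.2% were lower and 5.25% higher. The chemokine direction depended on the interferon-high cells. Without them 5 chemokines were measured, with 2 higher and 1 lower in hCD33m, and the median log2 ratio went from -1.05 to 0.73. The highest ratios outside the early genes, Imp4, Oard1, Lrrcc1 and Ccdc82, each rested on 1 Control UMI in chemokine-rich cells and had log2 ratios of 3.73, 3.49, 3.09 and 3.03, against -0.04, 0.01, -0.08 and -0.09 in other cells. The lowest were Iigp1, Ifi211, Gdf15, Gm47283, Ccl5 and Irf7, at -5.78, -5.05, -4.07, -3.92, -3.88 and -3.46. Of these, Gm47283 lies on the Y chromosome and was also lower in other cells, with 8.06 CPM in hCD33m and 64.7 CPM in Control, and Iigp1, Ifi211, Ccl5 and Irf7 are interferon-responsive. Of 15 interferon-stimulated genes 13 were lower in hCD33m (median -2.27), but without the interferon-high cells 2 were measured and neither was called. Of 20 homeostatic genes none was called (median 0.15). Disease-associated genes gave 6 of 12 lower in hCD33m and none higher (median -0.57), beside 7.2% lower over all genes, and without the strongest cell of each gene 0 of 10 were lower (median -0.17).

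Chemokine-rich cells of hCD33M, only 16, gave 253 genes higher (5.88%) and 173 lower (4.02%) than Control of 4306 measured, against 30 (0.8%) and 12 (0.32%) in other cells. With TMM scaling they were 206 and 213. The intervals treat UMIs as independent, yet 1 hCD33M cell held 36.0% of the UMIs of its group. With each cell weighted the same, 942 genes were called, of which 287 were among the 426 called here. Sums over 16 and 29 cells carry more spread between cells than those over 3846 and 4018 other cells. The shares of genes called in the 2 kinds of cells are thus not on an equal footing. Set against hCD33M, chemokine-rich cells of hCD33m had 122 genes higher (2.89%) and 266 lower (6.31%) of 4215, and 170 and 191 with TMM, against 15 (0.4%) and 8 (0.214%) in other cells. Of 22 immediate early genes, hCD33M over Control gave 11 higher and 2 lower (median 0.82, against 0.09 over all genes), and hCD33m over hCD33M gave 6 higher and 1 lower (median 0.26, against -0.06). The 3 contrasts share libraries and are not independent of each other.

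**Figure D5:**
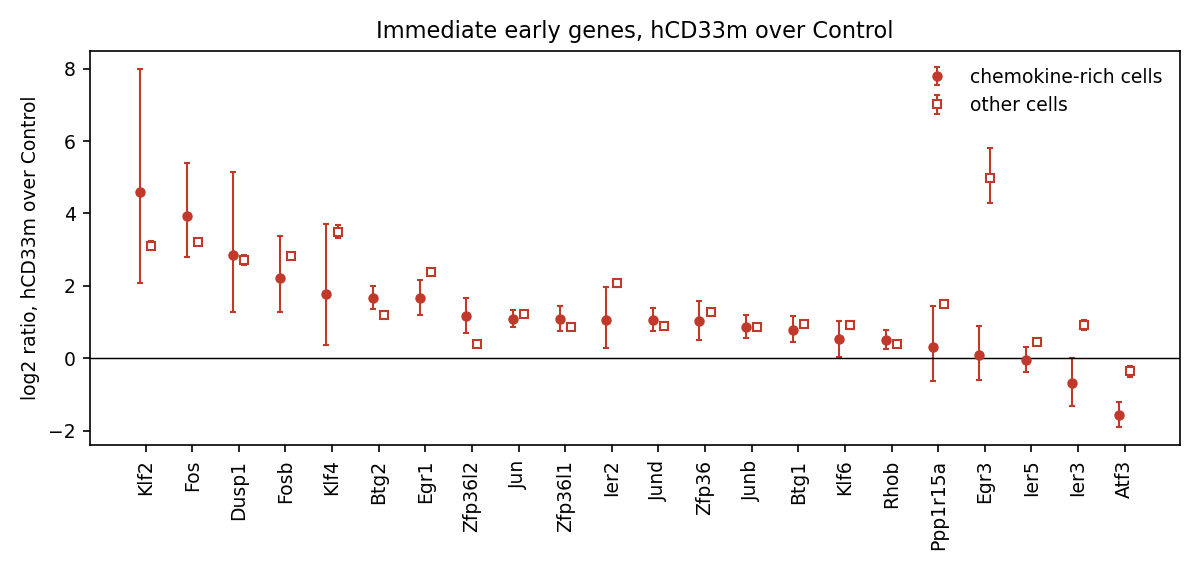
log2 ratio of hCD33m over Control (y axis) for the 22 immediate early genes measured in chemokine-rich cells, filled circles for chemokine-rich cells and open squares for other cells, with exact 95% counting intervals drawn to at most 8. Fos is high in both, and Egr3 stands apart in other cells.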

How the data were processed

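Microglia of 3 genotypes were profiled with 10x Chromium 3′ chemistry, 1 library each. The authors aligned reads to mm10 with Cell Ranger and deposited raw UMI counts per gene and cell, kept for barcodes with more than 200 genes and genes in at least 3 cells (Seurat in the submitters' notes). A gene missing from 1 library was set to 0. Cells with more than 200 and at most 8000 genes, at most 10% mitochondrial UMIs, and under 5 UMIs each of Mrc1, Ms4a7, Cd163, Lyve1 and Cbr2 together and of Plac8, Ly6c2 and Chil3 together were kept. UMIs were summed per library over chemokine-rich cells and over other cells with at least 2000 UMIs and scaled to CPM. Depth of the chemokine-rich sums was 895595 UMIs in hCD33m, 152223 in hCD33M and 162574 in Control. Intervals are exact conditional binomial for ratios and Clopper-Pearson for shares at 95%, and cover counting error only. With 1 library per genotype no test across samples was possible and no p is given. Genes named are the 16 highest and 10 lowest called, up to 4 per list by size, the 6 highest and 6 lowest between hCD33m and Control, markers and the 5 most correlated. The members and gene lists were chosen with earlier results of these data known. The calls were tried on simulated sums without spread between cells, which cannot show how calls that rest on single cells behave. Other folds, levels, cell rules, scalings and left-out libraries were tried. Clusters used 2000 variable genes, 15 principal components, 20 neighbours and Leiden resolution 0.8. Python 3.11.15, scanpy 1.11.5, leidenalg 0.10.2, scipy 1.17.1, edgeR 4.0.16 (TMM factors only) and matplotlib 3.10.9 were used. Promoter sequences are from RefSeq on GRCm38.p6. Some genes are not reported here.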

Additional observations from a re-analysis of the deposited data

Results flagged for a closer look

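Genes of MHC class II, which present antigen to T cells, moved in opposite directions between libraries in chemokine-rich over other cells. The log2 ratio of H2-Aa was -1.54 in hCD33m and 3.52 in hCD33M, that of H2-Eb1 -2.45 and 2.82, and that of H2-Ab1 -1.15 in hCD33m, 2.77 in hCD33M and -2.63 in Control. Chemokine-rich Control cells held no UMI of H2-Aa or H2-Eb1 and 1 of H2-Ab1. In hCD33M, 1 cell held all 33 H2-Aa, all 25 H2-Ab1 and all 18 H2-Eb1 UMIs and 80 of 89 Cd74 UMIs. That cell had 13357 UMIs, 3822 genes, 26 P2ry12 UMIs and 316 interferon-list UMIs per 10000, and is the interferon-high cell of that library. Ccdc82, a coiled-coil gene, was at 0.59 in hCD33m and -2.52 in Control, where it had 1 UMI. The differences between libraries were not tested.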

How the results depend on the processing

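The order hCD33m, Control, hCD33M of the shares was kept under every cell rule tried. With a minimum of 10 UMIs the shares were 1.11%, 0.142% and 0.275% in hCD33m, hCD33M and Control, and with 20 per 10000 they were 0.858%, 0.106% and 0.327%; thinned to 2000 UMIs they were 1.03%, 0.104% and 0.322%. In hCD33m a minimum of 3 UMIs gave 2.63% and 5 per 10000 gave 3.097%. The 137 higher and 22 lower genes became 68 and 0 at 2-fold, 75 and 4 at 50 CPM, 245 and 63 with no minimum level, 211 and 175 with 20 per 10000, and, as alternatives chosen after seeing the data, 56 and 109 without the strongest cell of each gene and 77 higher in cells under 50 per 10000. Lower genes were 1 with an interval clear of equality in each library, 54 with a minimum of 10 UMIs and 63 with each cell weighted the same. Leaving out 1 library gave 160 to 346 higher and 51 to 286 lower, since fewer libraries then had to pass. The middle log2 ratio of Irf7 was -0.61 at 20 per 10000, -1.92 without interferon-high cells and -0.97 without its strongest cell, that of Ifit2 -1.50 and Ccl12 -0.050 without interferon-high cells, and that of Cmpk2 -0.14 without its strongest cell, through the cells these settings drop. Genes differing between hCD33m and Control, 505 in all, were 325 at 2-fold, 318 at 100 CPM and 821 with each cell weighted the same. Against hCD33M they were 224 at 100 CPM and 930 with equal weights, and for hCD33M over Control 942. The largest share of chemokine-rich cells in a cluster was 49.4% at resolution 0.4, 24.4% with 30 components, 28.6% with Ccl3 and Ccl4 kept and 30.4% without immediate early genes. Depth limits hCD33M and Control most, with 16 and 29 cells. No paired analysis was possible because each genotype is 1 library.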

Other observations

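Of the gene groups not described above, few members were called in chemokine-rich cells. Of 8 heat shock genes measured none was called (median log2 ratio 0.20), and Hsp90ab1, a chaperone, had 1053, 1399 and 904 CPM in chemokine-rich cells of hCD33m, hCD33M and Control, against 843, 1150.2 and 754 CPM in other cells. None of 4 genes of the ATF4 and unfolded protein list (median 0.47) was called, though in cells above 50 Ccl3 and Ccl4 UMIs per 10000 its median was 1.10 in hCD33m, 0.77 in hCD33M and 1.23 in Control. Of 7 growth arrest and p53 targets, Gadd45b and Cdkn1a were called higher (2 of 7, median 0.54). None of 8 ribosomal protein genes (median 0.13), 5 MAP kinase feedback genes (median 0.02) or 5 lipid genes (median 0.32) was called. Of 4 nuclear RNAs, Neat1, the scaffold of paraspeckles, was called higher, with 214, 171 and 135 CPM, against 126, 78.0 and 68.7 CPM, while Malat1 had log2 ratios of 0.00, -0.22 and 0.19.

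Nr4a1, an orphan nuclear receptor gene chosen after its values were seen, followed strength in hCD33m, with 140 CPM in cells above 50 Ccl3 and Ccl4 UMIs per 10000, 6.58 CPM in weaker chemokine-rich cells and 1.55 CPM in other cells. Apoe, chosen likewise, did not rank by strength, with 1022, 1207 and 536 CPM in the same 3 groups.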
